A study of Xenopus tropicalis x Xenopus laevis and Xenopus tropicalis with 6 samples.

Results

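The enzymes of glycolysis and the TCA cycle, with their direct regulators and the carriers that feed them, were followed gene by gene in inviable *Xenopus* hybrid embryos. The list held 49 genes. A feature (a gene model in the count table) was taken when its name without the endings for gene copies equalled a listed gene, or, for models without a gene name, when the human gene name assigned to it did. This gave 107 features of 45 genes, of 45244 features in all: 40 of the 18062 *X. tropicalis* features and 67 of the 27182 *X. laevis* features. No feature was found by this rule for *eno2*, *pdhx*, *pfkl* and *pgam2*. Of the 107 features, 66 matched by name and 41 by human name, among them 36 *X. laevis* and 5 *X. tropicalis* features. Features of both species were found for 35 genes, of *X. laevis* only for *aldoa*, *eno3*, *ldha*, *pc*, *slc2a1* and *slc2a3*, and of *X. tropicalis* only for *aco1*, *dlat*, *fh* and *ldhb*.

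Hybrids from *X. tropicalis* eggs and *X. laevis* sperm (libraries 40, 41 and 42) were set against *X. tropicalis* embryos (libraries 37, 38 and 39). Whole embryos were collected 7 hours after fertilization, 3 biological replicates a group per the series text, and polyA RNA was sequenced. The title of the series names loss of paternal chromosomes and a metabolic crisis of the hybrids as its subject, and the genes below are the core of energy metabolism. In hybrids the *X. tropicalis* copies are the maternal ones and the *X. laevis* copies the paternal ones. In *X. tropicalis* embryos the *X. tropicalis* features count the copies of both parents, so the groups differ in the number of these copies. How far this difference enters the fold changes below was not tested. The *X. tropicalis* libraries hold no *X. laevis* genome, so their counts on *X. laevis* features serve as the background of each feature. The background in hybrids need not be the same, and some listed *X. laevis* features were lower in hybrids. Net levels and paternal percents below assume an equal background, which was not tested.

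Glycolysis splits glucose into pyruvate in the cytosol. Its pace is set at hexokinase, phosphofructokinase and pyruvate kinase, and phosphofructokinase is activated by fructose-2,6-bisphosphate, which the bifunctional PFKFB enzymes make and break down. Pyruvate then becomes lactate, or enters mitochondria through the MPC carrier and is turned into acetyl-CoA by pyruvate dehydrogenase, which feeds the TCA cycle. Frog eggs carry large stores of maternal RNA and yolk, and embryos of this age are near the start of gastrulation, soon after their own genome begins to be transcribed. *X. laevis* is allotetraploid, and most of its genes come as a pair of copies on a long (L) and a short (S) homeologous chromosome.

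Total counts ranged from 71435751 to 100025277 per library. Levels below are in CPM, scaled to the *X. tropicalis*-feature counts of the library times its TMM factor, and the same scale is used for the features of both species. The table gives no feature lengths, so levels are compared between libraries and not between genes. Values with ± are mean and SD over 3 libraries of a group unless an SE is named. Whole embryos were sequenced, so a lower share of a cell type and less RNA per cell cannot be told apart. A list of 17 early gastrula marker genes was measured on 21 *X. tropicalis* features, none of which was at 0 in all libraries. Their summed level lay between 3425 and 4167 CPM in hybrids, against 5434 to 5485 CPM in *X. tropicalis* embryos, and 10 of the 20 tested were lower in hybrids by edgeR, where 3% of all tested *X. tropicalis* features were. The paternal copies of these markers summed to a mean of 1396 CPM in hybrids, against 3.91 CPM in *X. tropicalis* embryos. Of 27 tested, 26 were above background by edgeR, where 38.5% of all tested *X. laevis* features were. With the copies found by name added, markers lay on both sides: *gsc* had 143.0 ± 23.8 CPM in hybrids, against 105.0 ± 5.99 CPM, and *sox2* 88.3 ± 32.4 CPM, against 322.1 ± 71.2 CPM. Markers were matched by name only. For *sox2* only 1 *X. laevis* feature was found, on an unplaced scaffold, so its total may lack paternal copies. Markers of later differentiation, on 8 *X. tropicalis* features, summed to between 0.907 and 5.38 CPM in hybrids, against 5.80 to 16.2 CPM in *X. tropicalis* embryos. Most of these sums came from *elavl3*, at 2.56 ± 1.79 CPM in hybrids, against 9.76 ± 5.74 CPM. It was the only feature of them tested and was not called (adjusted p = 0.171 by edgeR). The others averaged at most 0.385 CPM in either group and lay on both sides, so the sums do not describe later markers in general. The part of these marker differences in the results below was not tested.

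Most *X. tropicalis* copies of the pathway were at similar levels in both groups, and *pfkfb3* was the 1 exception that passed the test. All 40 *X. tropicalis* features passed the filter on low counts and entered the edgeR quasi-likelihood test, with Benjamini-Hochberg adjustment over 14079 features and a threshold of 0.05. None was higher in hybrids, with 8 at an unadjusted p under 0.05 and 3 by DESeq2 (*mpc2*, *pdhb* and *ldhb*). Over all tested *X. tropicalis* features 0.76% were higher, with 7.56% at an unadjusted p under 0.05 and 2.83% by DESeq2. Lower in hybrids was only *pfkfb3* by edgeR, and *pfkfb3* and *hk2* by DESeq2, where 3% of all tested features were lower by edgeR and 5.65% by DESeq2. At an unadjusted edgeR p under 0.05, 4 were lower, against 10.3% of all features. Of the 40 log2 fold changes, 30 lay within 0.5 of zero, and the median SE was 0.15. The share of all tested features in that range was not computed, so this count does not set the list apart.

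The fold changes leaned to the positive side on this scale: 29 were positive and 11 negative, with a median of 0.16, against 49.5% positive and a median of -0.01 over all tested features. The groups did not overlap for 13 features. All 3 hybrids lay above all 3 *X. tropicalis* libraries for 10 of them, against 11% of all features, and below for 3 (*pfkfb3*, *hk2* and *cs*), against 13.3%. This lean depends on the scale. With library sizes taken over the features of both species the median of all features was -0.30 and that of the 40 was -0.13, and 11 were positive and 29 negative. On that scale *pfkfb3*, *hk2* and *cs* were lower, as were 8.35% of all features, and none was higher, against 0.547% of all features. The median of the 40 lay about 0.16 above that of all features. A change of scale shifts all fold changes nearly alike, so this distance is the same on both scales by construction. No test was made of that distance.

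**Figure D1:**
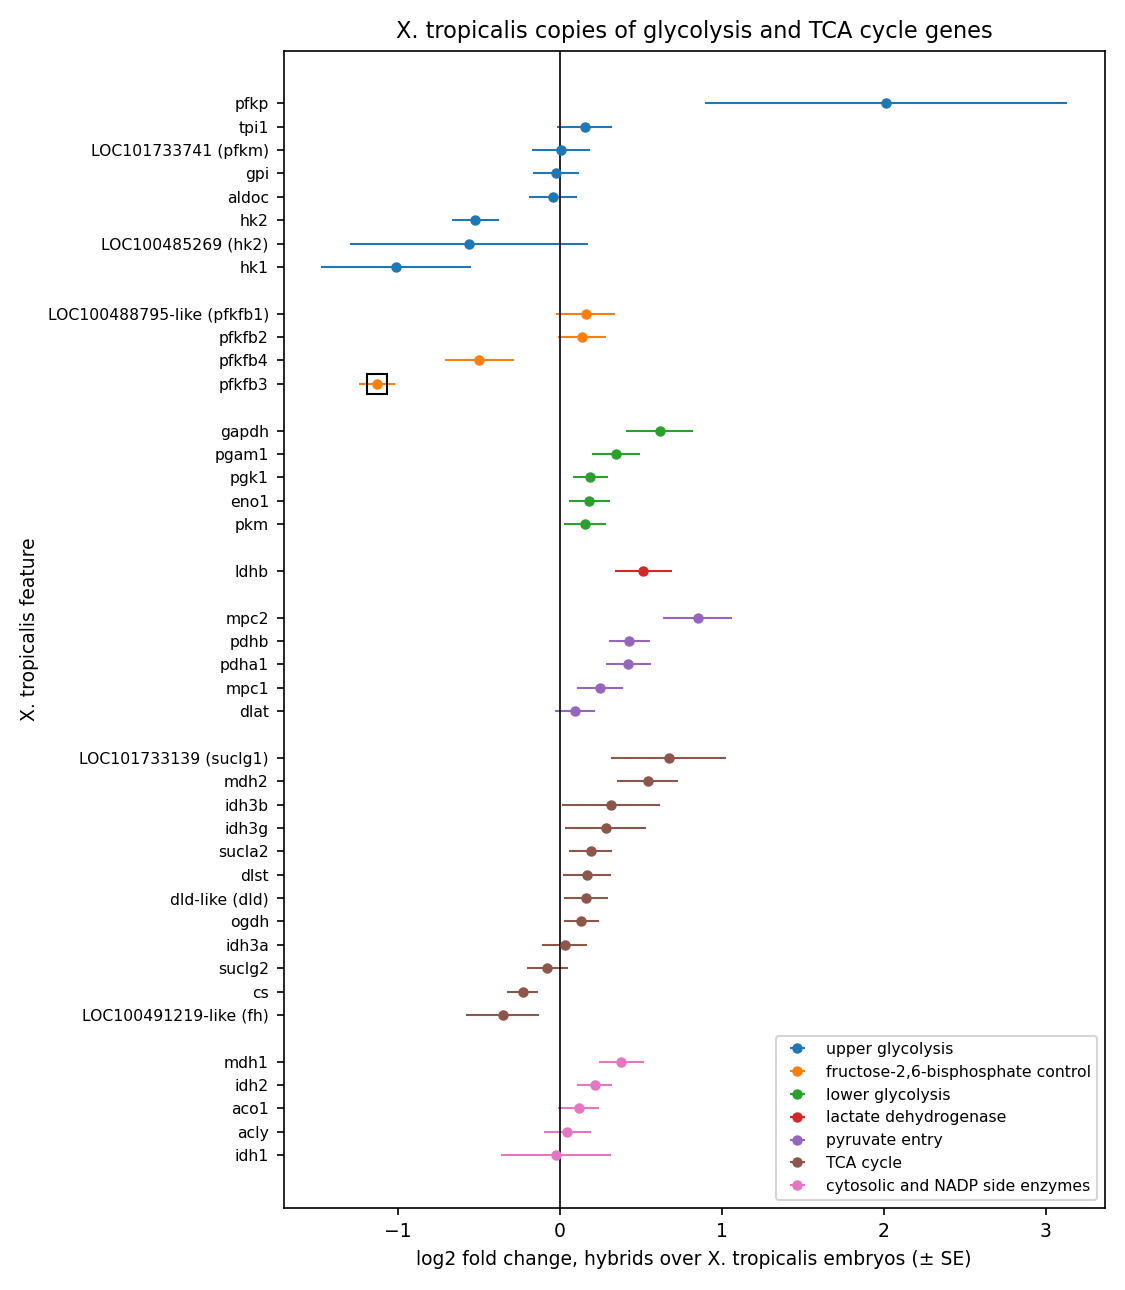
Log2 fold change (hybrids over X. tropicalis embryos) of each X. tropicalis feature, with its SE, 3 libraries per group, grouped by role; names in brackets give the listed gene for features without a gene name. The black square marks the 1 feature that passed the test, pfkfb3 at -1.13. Of the 40 points 30 lie within 0.5 of zero, a share not computed for all features.

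The PFKFB enzymes, which control phosphofructokinase, held the one called change of the *X. tropicalis* copies, which are those of both parents in *X. tropicalis* embryos. *pfkfb3* encodes the isoform whose kinase activity most outweighs its phosphatase activity in mammals. Its *X. tropicalis* copy (chromosome 3) had 168.7, 158.4 and 170.6 CPM in hybrids, against 386.7, 360.9 and 341.0 CPM in *X. tropicalis* embryos. The groups did not overlap, and the libraries of each group lay close together. The log2 fold change was -1.13 ± 0.11 (SE), with an adjusted p of 2.81e-04 by the edgeR quasi-likelihood test.

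The paternal S copy of *pfkfb3*, which *X. tropicalis* embryos do not have, was well above background. *pfkfb3.S* (chromosome 3S) had 103.3, 94.1 and 122.6 CPM in hybrids, against 0.256, 0.486 and 0.179 CPM of background in *X. tropicalis* embryos. The adjusted p against background was 4.84e-15 by edgeR. The paternal L copy *pfkfb3.L* (chromosome 3L) had 4.51, 0.0131 and 2.31 CPM in hybrids, against 0, 0 and 0.0211 CPM in *X. tropicalis* embryos. It was above background (adjusted p = 0.00196 by edgeR), although hybrid 41 held it at background level.

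With all copies added, *pfkfb3* had 274.9 ± 21.6 CPM in hybrids, against 363.2 ± 22.9 CPM in *X. tropicalis* embryos, and 39.4 ± 2.54% of the hybrid level was paternal (range 37.2 to 42.2%). In the second deposited table, which adds the copies of both species under human gene names, PFKFB3 was lower by 0.58 ± 0.11 (log2, SE) on that table's own scale. That difference, log2 fold change -0.58, had an adjusted p of 0.00824 by edgeR, and of 0.0523 without hybrid 41. With its paternal copies the gene was thus closer to the *X. tropicalis* level than on the maternal copy alone, and still below it.

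**Figure D2:**
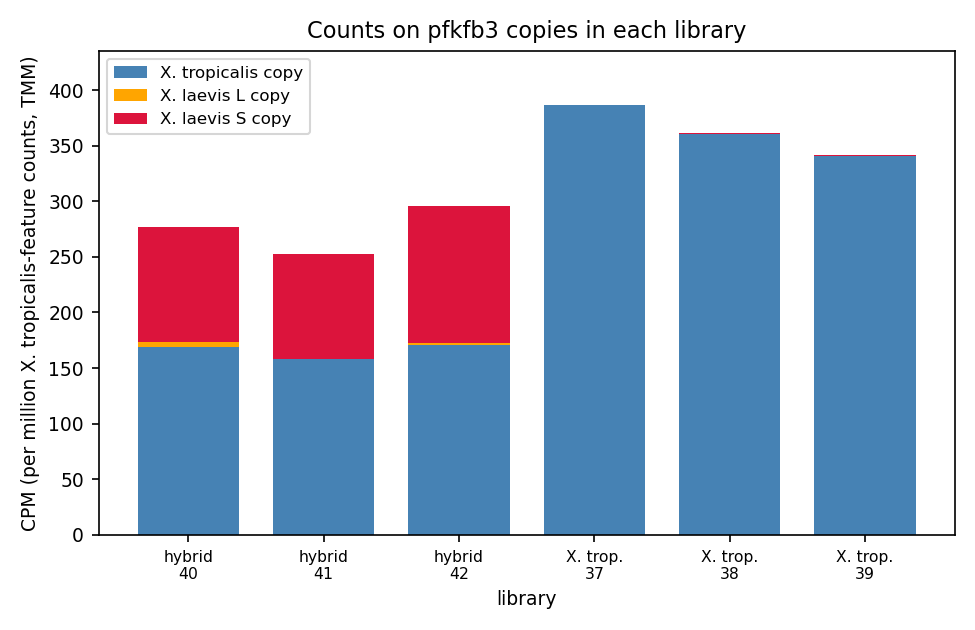
Stacked CPM of the X. tropicalis, X. laevis L and X. laevis S copies of pfkfb3 in each library, hybrids left and X. tropicalis embryos right. Hybrids hold 158.4 to 170.6 CPM of the X. tropicalis copy and 94.1 to 122.6 CPM of the S copy; X. tropicalis embryos hold 341.0 to 386.7 CPM of the X. tropicalis copy.

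The other PFKFB genes were not called on the *X. tropicalis* copies. *pfkfb4* had 54.6 ± 8.25 CPM in hybrids, against 77.0 ± 20.9 CPM in *X. tropicalis* embryos, and the groups overlapped (log2 fold change -0.50, adjusted p = 0.253 by edgeR). *pfkfb2* had 163.1 ± 23.1 CPM in hybrids, against 148.3 ± 18.9 CPM, and the feature LOC100488795-like, counted here as *pfkfb1*, had 166.6 ± 39.4 CPM in hybrids, against 149.2 ± 20.2 CPM. Of the paternal copies, *pfkfb2.L* was above background at 2.81, 4.78 and 5.10 CPM in hybrids, against 0.0233, 0.936 and 0.496 CPM (adjusted p = 0.0267 by edgeR). The call was lost without hybrid 41 (adjusted p = 0.0775) and without hybrid 42 (0.0963). The *pfkfb4* copies on 4L and 4S are described below with the chromosomes.

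Glucose enters cells through the SLC2A carriers, and here the table held only *X. laevis* features for those on the list. The *slc2a1* feature on 7S had 10.6, 11.7 and 7.76 CPM in hybrids, against 31.2, 20.9 and 18.1 CPM in *X. tropicalis* embryos. It was the only *X. laevis* feature of the list that was lower in hybrids, where 0.309% of all tested *X. laevis* features were. The log2 fold change was -1.40 ± 0.37 (SE), with an adjusted p of 0.00331 by edgeR, on library totals over the features of both species. On the scale of the CPM given here the count ratio of hybrids over *X. tropicalis* embryos was 0.44. Counts in libraries without an *X. laevis* genome cannot come from *X. laevis* copies, so most of the counts on this feature were background. The second *slc2a1* feature, on an unplaced scaffold, had 83.0, 80.8 and 88.4 CPM in hybrids, against 135.7, 78.0 and 92.1 CPM, and the groups overlapped (adjusted p = 0.132 by edgeR). Under the human name SLC2A1 the log2 fold change was -0.60 on the scale of the human names (adjusted p = 0.0861 by edgeR). *slc2a3*, a second carrier of the family, was counted in hybrid 41 only, at 0.184 CPM.

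The upper steps, which trap glucose and cleave it into triose phosphates, showed no called change on their 8 *X. tropicalis* features by edgeR. At an unadjusted p under 0.05 the count was 1, and DESeq2 called 1, in both cases *hk2*. Over all features 10.3% were lower at an unadjusted edgeR p under 0.05 and 5.65% by DESeq2. *hk2* encodes hexokinase 2, which phosphorylates glucose. It had 104.0, 102.0 and 79.3 CPM in hybrids, against 139.6, 128.1 and 142.0 CPM in *X. tropicalis* embryos. The groups did not overlap, and the log2 fold change of -0.52 ± 0.14 (SE) had an adjusted p of 0.0856 by edgeR and 0.0210 by DESeq2. Under the human name HK2, to which other features also contribute, the log2 fold change was -0.65 ± 0.15 (SE) on the scale of the human names. The adjusted p was 0.0276 by edgeR, and the call was lost in 4 of the 6 fits that left out 1 library (adjusted p up to 0.0978). On the CPM scale used here, the *hk2* features of both species summed to 100.8 ± 15.8 CPM in hybrids, against 139.7 ± 8.19 CPM.

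*aldoc*, an aldolase, was the most counted of these features, with 266.3 ± 53.3 CPM in hybrids, against 274.1 ± 7.14 CPM in *X. tropicalis* embryos. *gpi*, the isomerase that makes fructose-6-phosphate, had 74.7 ± 3.19 CPM, against 76.0 ± 5.87 CPM, and *tpi1*, which interconverts the triose phosphates, 71.2 ± 5.88 CPM, against 64.0 ± 11.5 CPM. These 3 genes overlapped between groups. The spread within groups was wide for some features of low level: *hk1* had 5.76 ± 2.48 CPM in hybrids, against 11.6 ± 6.11 CPM, and *pfkp*, a phosphofructokinase subunit, 3.15 ± 1.81 CPM, against 0.777 ± 0.621 CPM.

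Among the paternal copies of the upper steps, 4 of 12 tested were above background by edgeR, where 38.5% of all tested *X. laevis* features were. The hexokinase-like feature LOC100492955.L (3L, human name HK2) had 3.70, 2.62 and 1.57 CPM in hybrids, against 0.0233, 0.0237 and 0 CPM in *X. tropicalis* embryos. The *aldoc* copy on 2L had 4.62, 2.21 and 1.36 CPM in hybrids, against 0.0349, 0 and 0.0422 CPM. *tpi1.L* and *tpi1.S* averaged 1.50 and 1.17 CPM in hybrids, and the call of *tpi1.S* was lost in 4 of the 6 fits that left out 1 library (adjusted p up to 0.119 by edgeR). The highest net levels belonged to a pair of *aldoa* features on unplaced scaffolds that were also high in the background. They had 20.0, 21.5 and 33.6 CPM and 30.4, 41 and 46.9 CPM in hybrids, against 9.33, 13.1 and 15.4 CPM and 15.1, 29.7 and 28.3 CPM in *X. tropicalis* embryos. All hybrids lay above for both, and neither was called (adjusted p = 0.0761 and 0.202 by edgeR).

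The lower steps of glycolysis, which recover ATP and end in pyruvate, had positive log2 fold changes for all 5 *X. tropicalis* features, from 0.15 to 0.62. Over all tested features 49.5% were positive. None of the 5 passed edgeR or DESeq2 adjustment, and 2 were higher at an unadjusted edgeR p under 0.05, against 7.56% of all features. With library sizes over both species the scale shifts by about 0.3 downward. *gapdh*, the dehydrogenase that reduces NAD+, had 38.6, 59.6 and 58.2 CPM in hybrids, against 36.5, 34.3 and 31.1 CPM in *X. tropicalis* embryos. All hybrids lay above, hybrid 40 by little (log2 fold change 0.62 ± 0.21 SE, adjusted p = 0.149 by edgeR, and 0.0450 without hybrid 40). No other alternative called *gapdh*. *pgk1*, phosphoglycerate kinase, had 304.3 ± 18.7 CPM in hybrids, against 266.9 ± 11.0 CPM, and *pgam1*, phosphoglycerate mutase, 121.8 ± 15.1 CPM, against 95.7 ± 10.8 CPM. Neither overlapped between groups. The groups overlapped for *eno1*, an enolase, at 224.8 ± 22.6 CPM in hybrids, against 198.1 ± 16.0 CPM, and for *pkm*, a pyruvate kinase, at 218.2 ± 3.63 CPM, against 196.0 ± 28.0 CPM.

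Of the paternal copies of the lower steps, 5 of 9 tested were above background, beside the same 38.5% of all. The *eno1* copy on 7L had 5.82, 8.68 and 13.1 CPM in hybrids, against 0.0349, 0.130 and 0.0738 CPM in *X. tropicalis* embryos. Its partner on 7S had 18.8, 17.3 and 19.9 CPM in hybrids, against 17.1, 13.8 and 15.2 CPM, so that most of its counts were background. The *gapdh* copies on 7L and 7S had no count in the *X. tropicalis* libraries and were at least 128-fold and at least 202-fold higher in hybrids, computed against a floor of 3 counts over the group. *pgam1.S* and the *pgk1* copy on 8S averaged 2.06 and 2.32 CPM in hybrids, the call of *pgam1.S* being lost without hybrid 42 (adjusted p = 0.0553 by edgeR). Both *pkm* copies, on 3L and 3S, had at most 2 counts over the 3 hybrid libraries, against 218.2 CPM of the *X. tropicalis* copy.

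Lactate dehydrogenase, which turns pyruvate into lactate and back, was represented by *ldhb* on the *X. tropicalis* side. It had 152.8, 230.3 and 191.4 CPM in hybrids, against 114.3, 158.1 and 129.2 CPM in *X. tropicalis* embryos. Hybrid 40 lay below *X. tropicalis* library 38, and the log2 fold change of 0.52 ± 0.18 (SE) had an adjusted p of 0.158 by edgeR and 0.0486 by DESeq2. The *ldha* copies on 4L and 4S overlapped with their background, at 8.21, 10.5 and 3.98 CPM and 2.75, 2.90 and 3.44 CPM in hybrids, against 5.56, 9.22 and 1.69 CPM and 0.954, 3.32 and 0 CPM.

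None of the genes that carry pyruvate into the TCA cycle passed the adjusted edgeR test. All 5 *X. tropicalis* features had positive log2 fold changes with a median of 0.42, where 49.5% of all tested features were positive. At an unadjusted edgeR p under 0.05, 3 were higher, against 7.56% of all features. DESeq2 called *mpc2* and *pdhb* higher, where 2.83% of all features were. *mpc2*, a subunit of the mitochondrial pyruvate carrier, had 54.2, 64.3 and 65.0 CPM in hybrids, against 27.5, 44.3 and 29.9 CPM in *X. tropicalis* embryos. All hybrids lay above (log2 fold change 0.85 ± 0.21 SE, adjusted p = 0.0587 by edgeR and 0.00669 by DESeq2). On the scale of both species its log2 fold change was 0.56 (adjusted p = 0.111 by edgeR). Without *X. tropicalis* library 38 its adjusted edgeR p was 0.0207. With any other single library left out it was 0.0524 to 0.217, not past the threshold.

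On the scale of *X. tropicalis* features, both subunits of the pyruvate dehydrogenase E1 enzyme were also above in every hybrid. On the scale of both species the log2 fold change of *pdhb* was 0.14 (adjusted p = 0.548 by edgeR). *pdhb* had 157.3, 170.6 and 177.0 CPM in hybrids, against 114.7, 134.0 and 126.0 CPM in *X. tropicalis* embryos (log2 fold change 0.43 ± 0.12 SE, adjusted p = 0.0997 by edgeR and 0.0197 by DESeq2). *pdha1* had 97.1 ± 4.93 CPM in hybrids, against 72.4 ± 4.90 CPM (adjusted p = 0.137 by edgeR). *dlat*, the E2 subunit, had 123.0 ± 10.6 CPM in hybrids, against 115.2 ± 0.850 CPM, and *mpc1*, the partner of *mpc2*, 131.9 ± 18.3 CPM, against 111.2 ± 7.39 CPM, and both overlapped between groups. Paternal copies above background were those of *pdhb*, at 2.17, 1.95 and 1.92 CPM in hybrids, against 0, 0.0237 and 0.0211 CPM, and *mpc2.S*, at 0.241, 1.92 and 1.17 CPM, against no count. The *mpc2.S* call was lost without hybrid 41 (adjusted p = 0.0655 by edgeR). *mpc1.L* had no count in any hybrid library. A count of 0 allows up to 3 counts over the group.

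Pyruvate dehydrogenase is switched off by the PDK kinases and on by the PDP phosphatases, and the kinases held the largest called change of an *X. tropicalis* copy in the lists followed here. Of 4 tested *X. tropicalis* features of this group, 1 was higher and 1 lower by edgeR and by DESeq2. Over all features edgeR called 0.76% higher and 3% lower, and DESeq2 2.83% higher and 5.65% lower. *pdk4*, on an unplaced scaffold, had 122.5, 90.5 and 125.7 CPM in hybrids, against 7.60, 7.33 and 7.59 CPM in *X. tropicalis* embryos. The log2 fold change was 3.91 ± 0.19 (SE), with an adjusted p of 1.90e-05 by edgeR. The table assigns this feature the human name PDK2, so which kinase it encodes is uncertain here. The paternal *pdk4.S* (6S) had 108.1, 105.3 and 134.1 CPM in hybrids, against 0.175, 0.202 and 0.232 CPM, and the paternal part of the *pdk4* total was 50.8 ± 3.42%.

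*pdk1* moved the opposite way. Its *X. tropicalis* copy had 16.5, 15.9 and 19.2 CPM in hybrids, against 51.2, 54.5 and 62.5 CPM in *X. tropicalis* embryos (log2 fold change -1.70 ± 0.19 SE, adjusted p = 6.09e-04 by edgeR). The paternal copies added little, and the total was 18.5 ± 1.94 CPM in hybrids, against 56.1 ± 5.77 CPM. Both calls held in each of the 10 alternatives run. *pdk3* and *pdp1* were not called, and *pdp2* did not pass the filter on low counts.

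The TCA cycle itself had no called *X. tropicalis* feature by edgeR or DESeq2 among 12. At an unadjusted edgeR p under 0.05 there was 1 in each direction, *mdh2* and *cs*, where 7.56% of all features were higher and 10.3% lower. *cs*, citrate synthase, which makes the entry step, had 583.4, 568.4 and 544.5 CPM in hybrids, against 660.8, 661.6 and 666.4 CPM in *X. tropicalis* embryos. All hybrids lay below, by a log2 fold change of -0.23 ± 0.10 (SE) with an adjusted p of 0.249 by edgeR. On the scale of both species it was lower, at -0.52 with an adjusted p of 0.0165 by edgeR. *mdh2*, the mitochondrial malate dehydrogenase, had 53.8 ± 5.24 CPM in hybrids, against 37 ± 6.33 CPM, with all hybrids above (adjusted p = 0.159 by edgeR).

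*ogdh*, the E1 subunit of 2-oxoglutarate dehydrogenase, had 290.7 ± 6.42 CPM in hybrids, against 264.9 ± 17.6 CPM in *X. tropicalis* embryos, without overlap and with an adjusted p of 0.608 by edgeR. *idh3a*, a subunit of the NAD-dependent isocitrate dehydrogenase, had 96.4 ± 3.80 CPM in hybrids, against 94.3 ± 9.51 CPM. *suclg2*, a succinyl-CoA ligase subunit, had 254.1 ± 24.2 CPM, against 267.8 ± 26.9 CPM, and the feature counted as *fh*, fumarase, 27.6 ± 1.54 CPM, against 35.2 ± 8.77 CPM.

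Of the paternal copies of the TCA cycle, 7 of 14 tested were above background, beside 38.5% of all *X. laevis* features. *cs.S* (2S) had 20.5, 29.1 and 32.1 CPM in hybrids, against 0.0931, 0.273 and 0.580 CPM in *X. tropicalis* embryos (adjusted p = 1.60e-09 by edgeR). *cs.L* (2L) had 5.88, 5.31 and 9.37 CPM in hybrids, against 0.0233, 0.0474 and 0 CPM. The total of *cs* with both paternal copies was 599.6 ± 12.2 CPM in hybrids, against 663.3 ± 3.29 CPM. The *ogdh* copy on 3S had 4.65, 2.62 and 5.63 CPM in hybrids, against 0, 0 and 0.0316 CPM. *idh3b.S*, *mdh2.L* and *dlst.S* had no count in *X. tropicalis* libraries and were at least 206-fold, 120-fold and 104-fold higher in hybrids, against the floor of 3 counts over the group. *dlst.S* had no count in hybrid 40, and its call was lost without hybrid 42 (adjusted p = 0.0657 by edgeR). *idh3a.S* averaged 2.09 CPM in hybrids.

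The cytosolic and NADP-dependent enzymes, which supply reducing power and acetyl-CoA outside the cycle, had no called *X. tropicalis* feature among 5 by edgeR or DESeq2. At an unadjusted edgeR p under 0.05, 1 (*mdh1*) was higher, against 7.56% of all features. *idh2*, the mitochondrial NADP-dependent isocitrate dehydrogenase, was the most counted feature of the whole list, at 1043, 1022 and 1122 CPM in hybrids, against 823.9, 904.7 and 1013 CPM in *X. tropicalis* embryos. All hybrids lay above, the lowest of them by little (log2 fold change 0.22 ± 0.11 SE, adjusted p = 0.343 by edgeR). *mdh1*, the cytosolic malate dehydrogenase, had 111.3 ± 13.1 CPM in hybrids, against 85.5 ± 2.09 CPM, without overlap (adjusted p = 0.183 by edgeR). *aco1*, the cytosolic aconitase, had 280.6 ± 33.6 CPM in hybrids, against 258.8 ± 14.7 CPM, *acly*, ATP citrate lyase, 115.8 ± 11.6 CPM, against 112.1 ± 13.2 CPM, and *idh1* 23.1 ± 8.58 CPM, against 23.5 ± 9.34 CPM. These 3 overlapped.

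Of the 7 tested paternal copies of these enzymes, 4 were above background, beside 38.5% of all *X. laevis* features. *idh2.S* (3S) had 8.75, 5.90 and 11.8 CPM in hybrids, against 0.0116, 0 and 0 CPM in *X. tropicalis* embryos, a count ratio of 2261 (95% exact binomial interval 405.3 to 89360, for 1 background count). *mdh1.L* averaged 2.98 CPM in hybrids with hybrid 42 the highest, without which its call was lost (adjusted p = 0.0579 by edgeR), and *mdh1.S*, with no background count, was at least 197-fold higher in hybrids. The *acly* copy on 9_10S had 0, 0.683 and 1.54 CPM in hybrids, against no count, and its call was lost in 5 of the 6 fits that left out 1 library.

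Counted together, the paternal copies were measured at low levels. Of the 67 *X. laevis* features, 58 had at least 10 counts over the hybrid libraries and were tested, and 9 were not. This filter used the hybrids only, and *X. tropicalis* embryos hold no *X. laevis* genome. The direction of these calls was therefore favoured by the design. A call above background tells that a paternal copy was counted, and not that its level changed between groups. Above background were 25 features of 20 genes, 10 on L chromosomes, 14 on S and 1 unplaced, and 32 by DESeq2. Over all 23919 tested *X. laevis* features 38.5% were above background by edgeR, 46.3% at an unadjusted p under 0.05 and 47.2% by DESeq2. Of the 25, 8 had no count in the *X. tropicalis* libraries. *pfkfb3.S* alone held 53.0% of their summed net level (hybrid level less background) of 200.6 CPM. The next highest mean was 27.3 CPM (*cs.S*), and the lowest 0.741 CPM. Of the 58 tested, 13 had no count in at least 1 hybrid library, and 7 of these had at least 40 counts in another. Outside the 25, 11 tested features had a background of at least 50% of their hybrid level, and they held 97.0% of the list's *X. laevis* CPM in *X. tropicalis* embryos and 49.4% in hybrids.

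**Figure D3:**
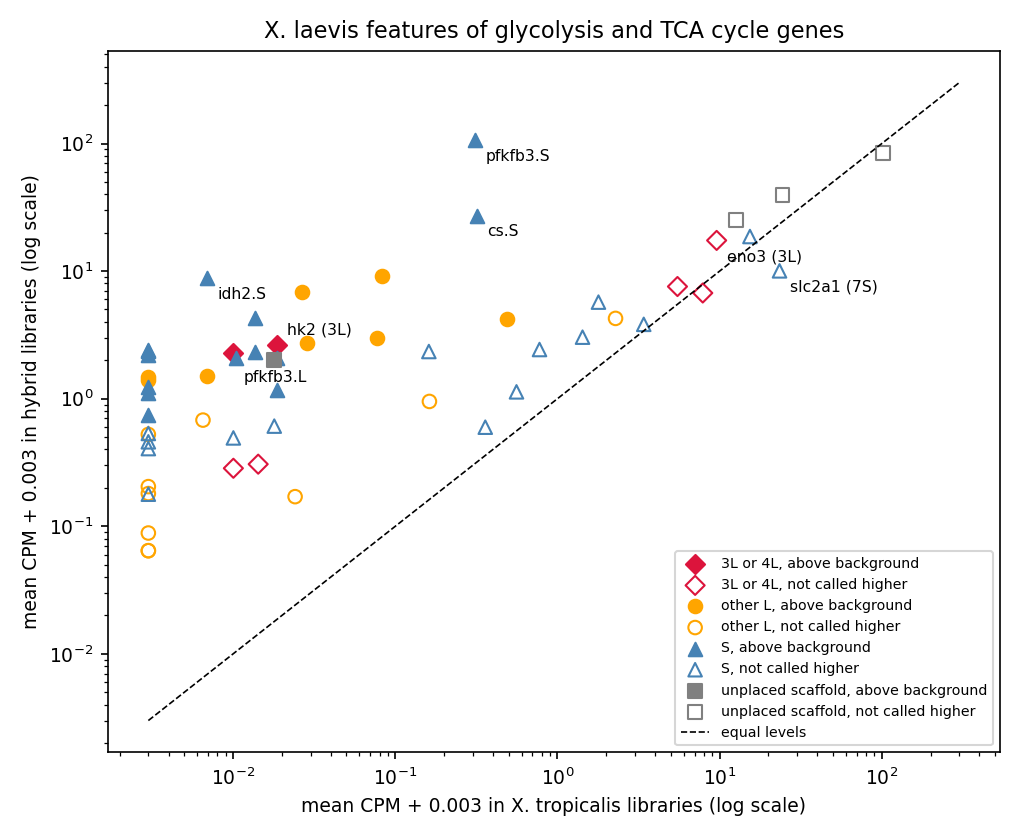
Mean CPM of the 58 tested X. laevis features in hybrids (vertical) against X. tropicalis libraries (horizontal), both on log axes after adding 0.003; filled symbols were above background. pfkfb3.S stands highest, and features near the dashed line of equal levels, such as eno3 on 3L and slc2a1 on 7S, carry mostly background.

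*X. laevis* features took 5.96, 6.24 and 7.39% of the list's counts in hybrids, against 4.01, 3.17 and 3.08% in *X. tropicalis* embryos. All hybrids lay above (exact 2-sided permutation p = 0.1, the smallest that 3 against 3 libraries allow). Only hybrids hold an *X. laevis* genome, so this direction was set by the design, and the p tells nothing particular to these genes. The net paternal percent was 3.11 ± 0.757, and over all features of the table it was 11.1 ± 1.20. Without *pfkfb3* the net percent of the list was 1.50 ± 0.643. These SDs are over hybrids and leave out the spread of the background. Over the 35 genes with features of both species the median paternal percent was 1.70, against 5.28 over the 8168 gene names with both species and at least 1 CPM on the *X. tropicalis* copy. It was below 10% for 33 of the 35 and below 5% for 26. *pfkfb3* was first and *idh3b*, a subunit of isocitrate dehydrogenase, second at 16.4 ± 9.10%.

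**Figure D4:**
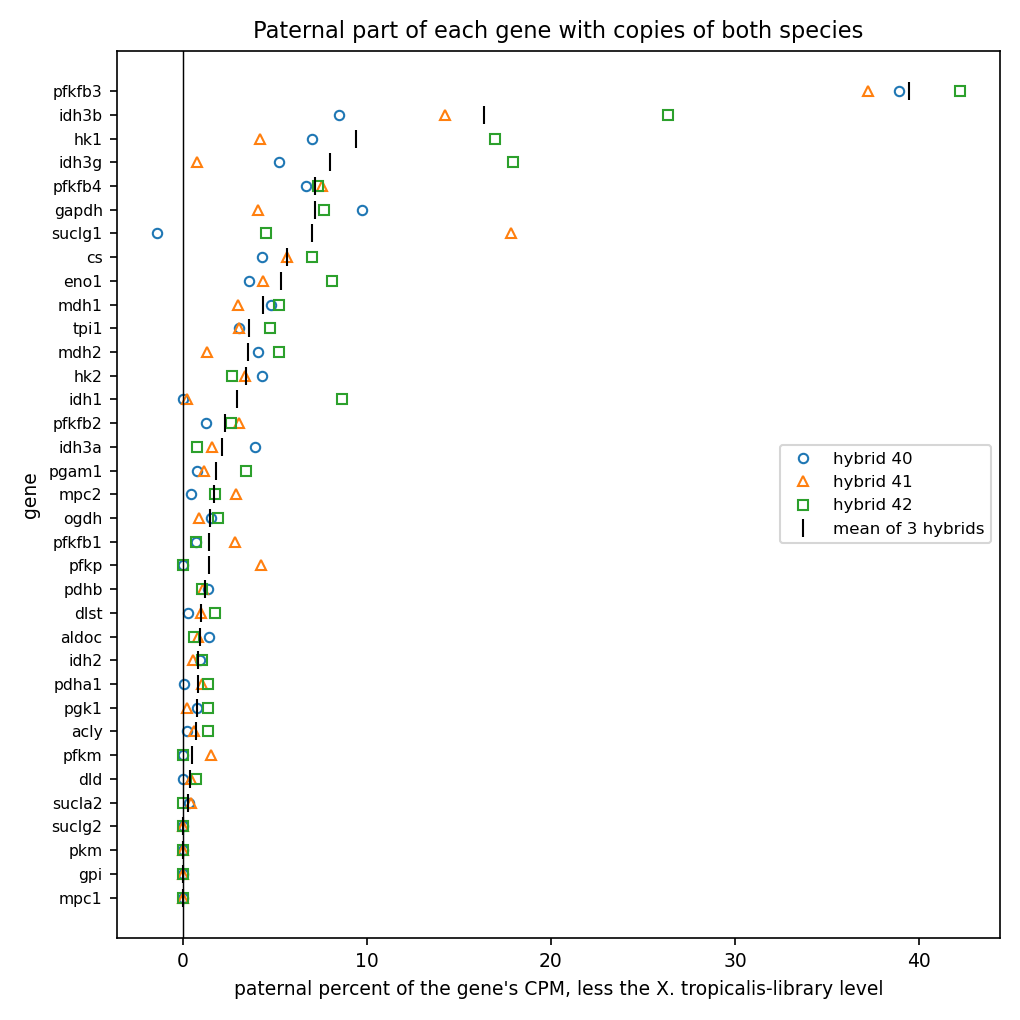
Paternal percent of the summed CPM of each gene with features of both species, less the level in X. tropicalis libraries, in the 3 hybrid libraries (symbols) with their mean (bar). pfkfb3 lies at 37.2 to 42.2%, and the means of 33 of the 35 genes lie below 10%.

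The paternal chromosomes 3L and 4L, which the study examined for loss in hybrids, carried 13 of the 67 features. On 3L lay 8, of which 4 were tested and 2 were above background (LOC100492955.L and *pfkfb3.L*, both described above). On 4L lay 5, of which 3 were tested and none was above background by edgeR, by DESeq2 or at an unadjusted p under 0.05. On other L chromosomes 8 of 18 tested were above background, and on S chromosomes 14 of 29. Over all features the shares were 20.7% on 3L and 4L, 39.9% on the other L chromosomes and 42.4% on S chromosomes. The features of *dld*, *ogdh*, *pkm* and the second hexokinase-like model on 3L, and of *gpi* and *suclg2* on 4L, had at most 4 counts over the 3 hybrid libraries.

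The other tested features of 3L and 4L were close to background or seen in some hybrids only. *idh2.L* (3L) had 0.815, 0.0131 and 0.0175 CPM in hybrids, against 0, 0 and 0.0211 CPM in *X. tropicalis* embryos. The *eno3* feature (3L), an enolase of muscle, had 11.7, 16.9 and 23.6 CPM in hybrids, against 11.5, 9.20 and 8.02 CPM (adjusted p = 0.182 by edgeR). The *pc* feature (4L), pyruvate carboxylase, had 6.67, 6.48 and 7.04 CPM in hybrids, against 11.8, 6.0 and 5.82 CPM. The *pfkfb4* copy on 4L had 0.543, 0.368 and 0 CPM in hybrids, against 0.0233, 0 and 0.0106 CPM, and its partner on 4S 5.81, 5.81 and 5.51 CPM, against 0.233, 3.24 and 1.89 CPM. No test was past the threshold for these 5.

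The net paternal level per feature was 1.09 ± 0.0927 CPM over the 13 features of 3L and 4L, 1.81 ± 0.447 CPM over 19 on other L chromosomes and 5.40 ± 0.976 CPM over 31 on S chromosomes. SDs of net levels are over hybrids and leave out the spread of the background. With 1 *X. tropicalis* library left out the value of 3L and 4L was 0.811 to 1.32 CPM. Without *pfkfb3.S* the S mean was 2.03 ± 0.555 CPM. Over all features of the table the means were 1.46 ± 0.241, 5.36 ± 0.778 and 5.61 ± 0.797 CPM. The mean of 3L and 4L rested largely on *eno3*, with a net level of 7.81 CPM on a high background. The median over the 13 features was 0.0108 CPM, against 0.866 CPM on other L and 1.12 CPM on S chromosomes. The 7 features of 3L and 4L whose background was below 50% of their hybrid level averaged 0.783 ± 0.504 CPM. For 22 genes with L and S features, the range of net levels over the 3 hybrid libraries was compared between copies. The whole range of S lay above that of L for 8 (*cs*, *idh2*, *ogdh*, *pc*, *pfkfb3*, *pfkfb4*, *pgam1* and *pgk1*). That of L lay above S for 2 (*eno1* and *hk2*), and 12 overlapped. Ranges can overlap although the order is the same within each library. *mdh2* is such a case, with 1.81, 0.762 and 1.61 CPM (L) and 0.543, 0 and 1.05 CPM (S) in hybrids. The lengths of the copies are not known, and this order is no measure of expression per length. For *pc* and *eno1* it came from the subtraction alone: before it, *pc* on 4L and *eno1* on 7S were the higher in each hybrid library. Missing counts on a copy and a missing copy cannot be told apart in these tables.

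With the copies of both species added under human names, 46 of the listed names were tested, and none was higher by edgeR (6 at an unadjusted p under 0.05 and 2 by DESeq2, MPC2 and PGAM2). Over all names 5.06% were higher by edgeR, 12.2% at an unadjusted p under 0.05 and 8.25% by DESeq2. The name PGAM2 is carried by *pgam1.S*. Lower were PFKFB3 and HK2 by edgeR, where 2.86% of all names were lower, and 4 by DESeq2, with CS and SLC2A1, where 5.42% of all names were. At an unadjusted edgeR p under 0.05, 8 were lower, and the share over all names is not given here for that count. The median log2 fold change of the 46 was 0.00, against 0.02 over all names.

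The neighbouring pathways showed few called *X. tropicalis* copies. Among 15 tested genes of gluconeogenesis, lactate transport and other glycolytic isoforms, none was higher by edgeR (2 at an unadjusted p under 0.05 and 1 by DESeq2) and 1 was lower, where 3% of all features were. Over all features 7.56% were higher at an unadjusted edgeR p under 0.05 and 2.83% by DESeq2. *slc2a2*, a glucose carrier of liver and gut, had 25.0, 22.9 and 25.5 CPM in hybrids, against 67.4, 63.3 and 86.6 CPM in *X. tropicalis* embryos (log2 fold change -1.56 ± 0.18 SE, adjusted p = 8.54e-04 by edgeR). Its paternal copies were high: *slc2a2.L* had 26.4, 27.2 and 47.1 CPM in hybrids, against 0.0349, 0.0830 and 0.0316 CPM. *slc2a2.S* averaged 6.06 CPM in hybrids, against 0.0856 CPM. The total was 64.1 ± 12.4 CPM in hybrids, against 72.5 ± 12.4 CPM, of which 61.0 ± 5.83% was paternal. Further paternal copies above background were those of *pck2*, *fbp1*, *bpgm*, *pgm2*, *slc16a1* and *slc16a7*, of which *slc16a7.S*, a monocarboxylate carrier, was the highest at 31.1 ± 8.90 CPM in hybrids, against 6.95 ± 1.57 CPM.

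Of 6 tested *X. tropicalis* genes of glycogen metabolism, none was higher by edgeR, by DESeq2 or at an unadjusted p under 0.05, and 1 was lower, again beside 3% of all. *pygm*, a glycogen phosphorylase that the table names PYGB in human, had 110.6, 68.9 and 96.8 CPM in hybrids, against 284.2, 222.5 and 208.3 CPM in *X. tropicalis* embryos (log2 fold change -1.37 ± 0.19 SE, adjusted p = 0.00236 by edgeR). *pygm.S* had 24.3 ± 3.64 CPM in hybrids, against 0.0337 ± 0.00960 CPM, and the total was 116.6 ± 18.7 CPM, against 238.4 ± 40.4 CPM. Also above background were *pygl.L*, *ugp2.S* and *gyg1.L*.

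**Figure D5:**
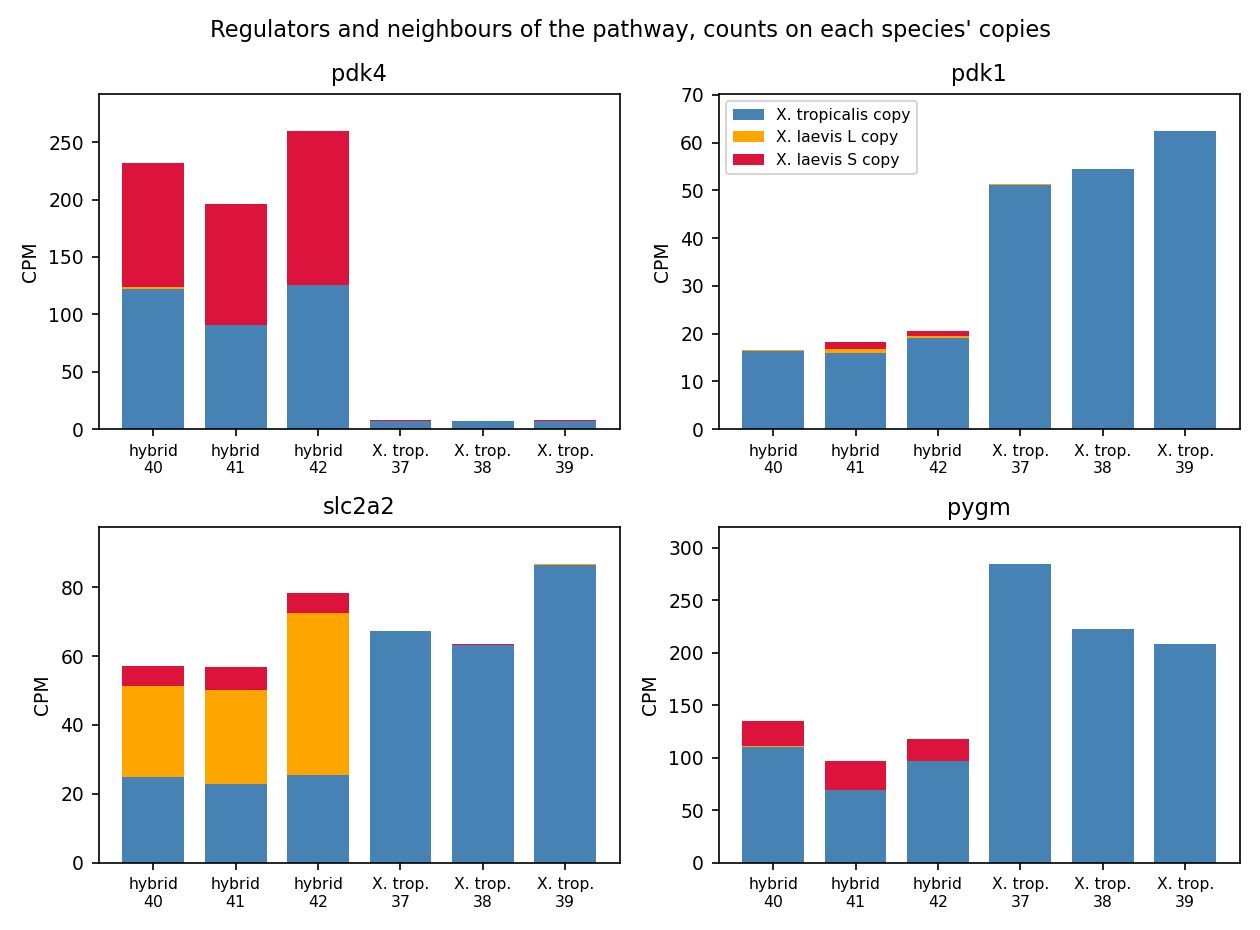
Stacked CPM of the X. tropicalis, X. laevis L and X. laevis S copies of pdk4, pdk1, slc2a2 and pygm in each library, hybrids left and X. tropicalis embryos right. Hybrids stand far above for pdk4 and below for pdk1 and pygm, and the paternal L copy fills much of the slc2a2 bar.

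Among 10 tested regulators of the response to low oxygen and of glycolysis, 2 *X. tropicalis* copies were lower by edgeR and by DESeq2, where 3% of all features were by edgeR and 5.65% by DESeq2, and 4 were lower at an unadjusted p under 0.05, against 10.3%. None was higher by either tool or at an unadjusted p under 0.05. *egln3*, a prolyl hydroxylase acting on HIF, had 18.5, 9.45 and 5.42 CPM in hybrids, against 37.7, 42.3 and 41.1 CPM in *X. tropicalis* embryos (log2 fold change -1.86 ± 0.38 SE, adjusted p = 0.0227 by edgeR). *epas1*, which encodes HIF-2 alpha, had 30.9, 25.5 and 24.5 CPM in hybrids, against 80.1, 61.7 and 48.6 CPM (log2 fold change -1.24 ± 0.22 SE, adjusted p = 0.00952 by edgeR). With the paternal copies the total of *egln3* was 27.5 ± 8.37 CPM in hybrids, against 44.8 ± 3.58 CPM, and its paternal part was 54.7 ± 11.4%. That of *epas1* was 35.1 ± 2.44 CPM, against 68.1 ± 19.1 CPM, with a paternal part of 11.6 ± 5.75%. The *egln3* call was lost in 4 of the 6 fits that left out 1 library (adjusted p up to 0.107) and that of *epas1* without hybrid 41 (0.0520). *hif1a*, encoding HIF-1 alpha, was not called on its *X. tropicalis* copy, at 378.5 CPM in hybrids, against 451.7 CPM. Its paternal copies had 24.4 ± 6.01 CPM (L) and 21.1 ± 5.86 CPM (S) in hybrids, against 0.0426 and 0.0610 CPM. Paternal copies of *egln1*, *egln3* and *vhl* were also above background.

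The other TCA cycle enzymes (6 tested *X. tropicalis* features) and the pentose phosphate pathway (7 tested) had no called *X. tropicalis* feature by edgeR or DESeq2. At an unadjusted edgeR p under 0.05 these were 1 higher among the first, and 2 higher and 1 lower among the second. Over all features 7.56% were higher and 10.3% lower at that threshold. The smallest p values belonged to *sdhc*, a subunit of succinate dehydrogenase, at 29.4 CPM in hybrids, against 20.8 CPM in *X. tropicalis* embryos (adjusted p = 0.270 by edgeR), and *taldo1*, transaldolase, at 196.5 CPM, against 145.8 CPM (adjusted p = 0.159 by edgeR). The paternal copies *sdhc.S*, *pgls.L* and *rpe.S* were above background, *pgls.L* lying on 3L with 1.21, 2.13 and 4.09 CPM in hybrids, against 0.0349, 0.0237 and 0 CPM.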

How the data were processed

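Both tables hold raw counts as the authors deposited them, one by feature and one with features added up under human gene names. BWA 0.7.10 was used, per the submitters' processing notes. Not given in the sources used here are the counting program, gene models, builds and use of strand. Reads of homeologs, of both species, of near-identical paralogs or of overlapping genes may therefore have been counted on either. No genome was used and no coordinates or sequences are given. Species and chromosome were read from feature names.

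The main test was the quasi-likelihood test of edgeR 4.0.16 in R 4.3.3, after filterByExpr and TMM, with Benjamini-Hochberg adjusted p-values and a threshold of 0.05. *X. tropicalis* features used library sizes of their own, and human names those of their table. *X. laevis* features entered with 10 or more counts summed over hybrids, with *X. tropicalis* libraries as background and totals over all features times the *X. tropicalis* TMM factors. The SE is the log2 fold change over the square root of F. Common coefficients of variation were 0.649, 0.526 and 1.29 for *X. tropicalis* features, human names and *X. laevis* features. The tests were checked on simulated counts of smaller variation than these coefficients, so the check does not cover the spread of the data. Alternatives were DESeq2 1.42.0, its size factors, other filters and scales, and leaving out each library.

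CPM are deposited counts scaled as the report says. A count of 0 in a group has a floor of 3 counts over its libraries, and intervals are 95% exact binomial. Both cover counting error only, since PCR copies of a molecule are counted too. The net level is the hybrid CPM less the mean *X. tropicalis* CPM. Figures used matplotlib 3.10.9.

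The genes and lists were chosen with earlier results of these data known. Named genes are every called feature, every *X. laevis* feature of 3L or 4L with at least 10 hybrid counts, in each role the 2 *X. tropicalis* features of highest mean CPM and the 2 *X. laevis* features of highest net level, and of other lists the called features or the one with the smallest p. A gene taken by this rule is not reported here. Any other gene was named after its values were seen.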

Additional observations from a re-analysis of the deposited data

How the results depend on the processing

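*X. tropicalis* features higher in hybrids numbered 0, against 3 by DESeq2, 1 with no filter on low counts, and 0 to 1 when 1 library was left out. Those lower numbered 1, against 2 by DESeq2, 2 with no filter and 3 with library sizes over both species. *pfkfb3* was past the threshold in all 10 alternatives (adjusted p up to 0.00317). *X. laevis* features above background numbered 25, against 3 of 10 tested with at least 5 CPM in 3 libraries, and 20 to 27 when 1 library was left out. Of the 25, 18 kept the call in each alternative that tested them and 7 lost it in at least 1. Human names higher numbered 0, against 2 by DESeq2 and 0 to 1 when 1 library was left out, and those lower 2, against 4 by DESeq2 and 0 to 3. The net paternal percent of 3.11 was 6.53 with no background subtracted, 1.50 without *pfkfb3* (chosen after seeing the data) and 2.68 to 3.40 when 1 library was left out. The net level on 3L and 4L of 1.09 CPM was 2.86 CPM with no background subtracted. It was 0.772 CPM with library totals over the features of both species and no TMM factors, and 0.0108 CPM as a median. It was 0.783 CPM without features of high background (chosen after seeing the data) and 0.811 to 1.32 CPM when 1 library was left out. Of 35 single results, 24 stayed past the threshold in every alternative run and 0 turned direction. For the changed counts and levels the cause was not tested. No paired analysis was possible because the replicate numbers of the groups are not shared. Of the 58 tested paternal features, 13 had no count in at least 1 hybrid library, and 7 of these had at least 40 counts in another. The source of these jumps between libraries was not tested, and on such features an absent and a low copy are not told apart.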

Other observations

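The human names of 8 further features are those of listed genes, although the features are not reached by the rule of names. They include an *X. tropicalis* feature named ALDOA in human, with 74.3 ± 4.93 CPM in hybrids, against 55.8 ± 7.05 CPM in *X. tropicalis* embryos (adjusted p = 0.208 by edgeR), and one named PDHX, a component of pyruvate dehydrogenase, with 25.2 ± 5.46 CPM in hybrids, against 18.7 ± 4.15 CPM (adjusted p = 0.465). A feature named PC had 40.1 ± 6.70 CPM in hybrids, against 53.0 ± 9.07 CPM (adjusted p = 0.340). None of the 8 was called by edgeR. The PDHX copies of *X. laevis* lie on 4L and 4S, with 2.06 ± 0.972 CPM and 3.45 ± 1.90 CPM in hybrids, against 1.06 ± 0.643 CPM and 3.12 ± 1.16 CPM in *X. tropicalis* embryos.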
